A study of Rattus norvegicus with 8 samples.

Results

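Freshly isolated liver immune cells of rats on a choline-deficient diet were compared with those of rats on a choline-sufficient diet. The members are the cells of the 4 libraries labelled fresh, chosen as barcodes with at least 500 unique molecular identifiers (UMIs) and under 20% of UMIs from mitochondrial genes. This gave 17058 of the 32170 cells of the series, namely 4617 and 4129 cells of the CSAA animals NC1 and NC2 and 4122 and 4190 cells of the CDAA animals PC1 and PC2. CSAA and CDAA stand for the l-amino acid-defined diets with sufficient choline (negative control) and without enough choline (positive control). All animals were male Han Wistar rats, each gave 1 fresh library, and n is therefore 2 animals per diet throughout. The age of the animals and the weeks on diet are not given in the sources used here. Immune cells were enriched by filters, erythrocyte lysis and a density gradient, and transcripts were read at their 3′ ends in droplets of the Chromium system. A second aliquot of each animal was stored in DMSO for 3 weeks, and these 4 libraries serve here only as a check of direction in the same animals.

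Choline is needed to make phosphatidylcholine, a membrane lipid that the liver also uses to export fat in lipoproteins. Without enough of it, fat collects in hepatocytes, and the diet is used as a model of fatty liver with inflammation. Macrophages, among them the resident Kupffer cells, take up lipid and dying cells in such livers, and the genes of lipid handling, lysosome and matrix turnover that they then express are often called lipid-associated macrophage genes.

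The fresh libraries held 22024254 to 26471843 UMIs, with a median of 3681 and 3877 UMIs per cell in NC1 and NC2 and of 4442 and 4567 in PC1 and PC2. Between 7.54% and 8.75% of the UMIs lay in droplets without a cell, which hold RNA that was free in the suspension, and 286 cells (1.68%) had a barcode that was also a cell in another fresh library. Pairs of fresh libraries shared 21 to 29 such barcodes, where independent draws from all barcodes give 23.1 to 26.2 on average. The label of immune cells was checked against markers. Summed markers of hepatocytes reached 286 to 577 CPM (UMIs of a gene scaled to a library total of 1000000) and those of liver endothelium 83.3 to 208. Those of stellate cells and fibroblasts were at 0.562 and 0.501 CPM on CSAA and 1.32 and 1.36 CPM on CDAA, with Col1a1 and Lum at 0. In the summed profile none of the 11 hepatocyte and 5 endothelial markers tested was called between diets. Markers of stellate cells and fibroblasts had too few counts to be tested. The hepatocyte sum was 401 and 286 CPM on CSAA and 511 and 577 CPM on CDAA. Its part in the results was not tested.

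In the profile of all fresh cells, genes higher on CDAA included 10 lipid-associated macrophage genes, and genes lower on CDAA included neutrophil-attracting chemokines, mast cell proteases and a T cell receptor chain. Of 11746 genes tested on UMIs summed per library, 118 were significantly altered at least 2-fold (1.0% of the genes tested; edgeR quasi-likelihood test, Benjamini-Hochberg adjusted p under 0.05). Of these, 85 genes (0.724% of the genes tested) rose and 33 (0.281%) fell on CDAA, and 84 of the 118 were in none of the gene lists read below. The count depended on each library of the 2 by 2 design, since 325 genes were called without NC1, 334 without NC2, 20 without PC1 and 7 without PC2. Of the 24 genes named below, 15 lost the call without PC1, 20 without PC2, 1 without NC2 and 0 without NC1, and none changed direction. In all 118 genes the 2 CDAA values lay on the same side of the 2 CSAA values, which was so for 53.5% of all genes tested. In such summed profiles, more cells of a type and more RNA per cell cannot be told apart.

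Lipoprotein lipase (Lpl), which releases fatty acids from lipoproteins at the cell surface, had the smallest adjusted p among the 24 genes named in the summed profile. Its level was 4.42 CPM in NC1, 3.79 CPM in NC2 and 129 CPM in both PC1 and PC2. The replicates of each diet were close together and the diets far apart, and the log2 fold change was 4.98 ± 0.14 (SE, n = 2 per diet; edgeR adjusted p = 0.00041).

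The largest rise was that of Spp1, which encodes osteopontin, a secreted protein of activated macrophages. Spp1 stood at 0.920 and 0.353 CPM in NC1 and NC2 and at 144 and 312 CPM in PC1 and PC2, a log2 fold change of 8.45 ± 0.58 (edgeR adjusted p = 0.0166). Fabp4, a fatty acid carrier of macrophages and adipocytes, was measured at 2.90, 6.31, 362 and 755 CPM in the order NC1, NC2, PC1 and PC2. Both genes were higher in PC2 than in PC1 by about the same factor, while every CDAA value exceeded every CSAA value. The fold change of Fabp4 was 6.93 ± 0.55 on the log2 scale (edgeR adjusted p = 0.0173).

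Apoe, the apolipoprotein that carries lipid out of macrophages, had 31.9 and 12.6 CPM on CSAA and 493 and 661 CPM on CDAA. The lipid receptor Trem2 had 3.96 and 1.26 CPM against 37.0 and 72.0 CPM. Gpnmb, a glycoprotein of lysosomes, had 26.1 and 10.7 CPM against 285 and 389 CPM. In these 3 genes NC1 was above NC2 and PC2 above PC1, and the log2 fold changes were 4.69 ± 0.46 for Apoe, 4.37 ± 0.55 for Trem2 and 4.19 ± 0.44 for Gpnmb. The edgeR adjusted p was 0.0216 for Apoe, 0.0374 for Trem2 and 0.0231 for Gpnmb.

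Cd63, a tetraspanin of late endosomes, was abundant under both diets, with 51.4 and 42.7 CPM on CSAA and 364 and 435 CPM on CDAA (log2 fold change 3.09 ± 0.16, edgeR adjusted p = 0.0073). The macrophage elastase Mmp12 had 0.828 and 2.2 CPM against 53.5 and 96.1 CPM (5.66 ± 0.48, edgeR adjusted p = 0.0173). The growth factor Igf1 had 2.44 and 4.90 CPM against 27.6 and 46.6 CPM. The remaining genes named upward were the folate receptor Folr2 (2.55 ± 0.22), the chemokine Ccl9 (2.32 ± 0.33) and the fatty acid carrier Fabp5 (2.30 ± 0.22), each given as log2 fold change with its SE. All 12 had values of the diets that did not overlap.

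**Figure D1:**
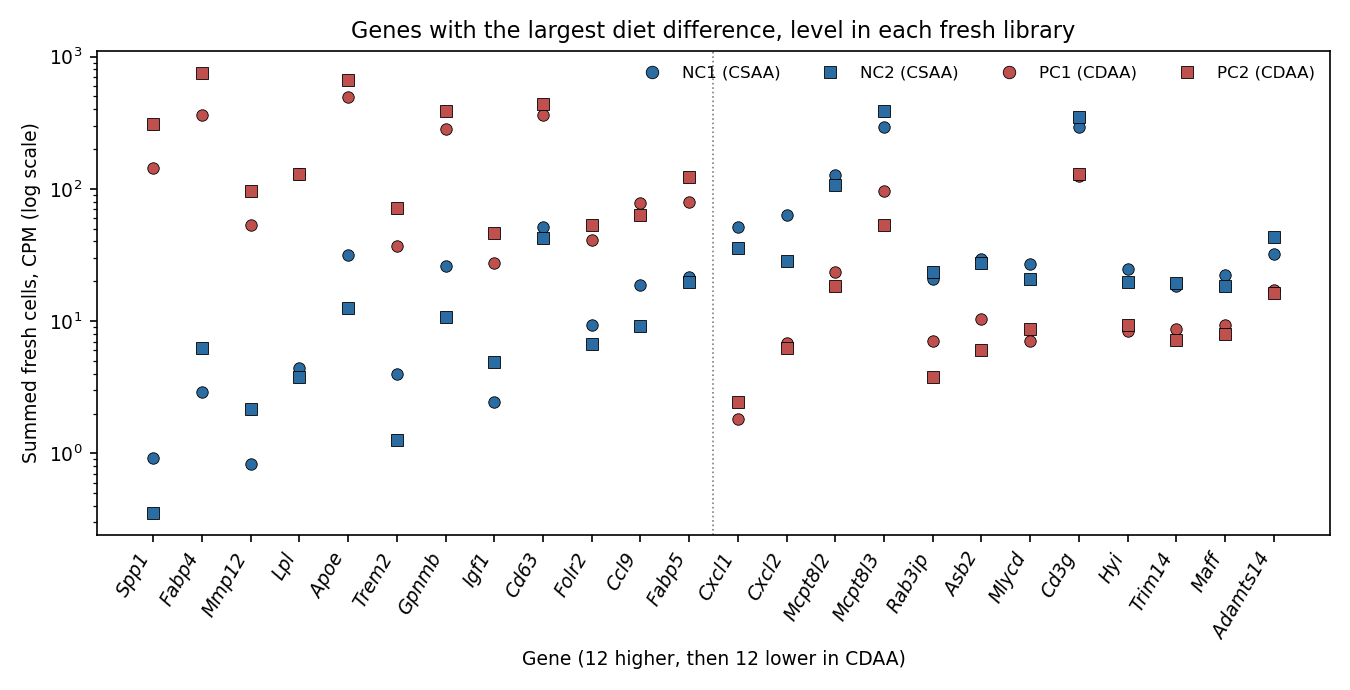
Level of the 24 named genes in the 4 fresh libraries, in CPM of the summed cells on a log scale; circles and squares are the animals of each diet, blue CSAA and red CDAA. Values of Spp1 reach from 0.353 to 312 CPM, and for each gene both red symbols lie on the same side of both blue ones.

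Among the genes that fell with a mean of at least 10 CPM, the chemokines Cxcl1 and Cxcl2, which attract neutrophils, had the largest changes. Cxcl1 had 51.1 CPM in NC1 and 35.5 CPM in NC2, but 1.82 CPM in PC1 and 2.44 CPM in PC2 (log2 fold change -4.34 ± 0.26, edgeR adjusted p = 0.0124). Cxcl2 had 63.5, 28.5, 6.84 and 6.29 CPM in the same order (-2.81 ± 0.39, edgeR adjusted p = 0.0450). The CSAA animals differed more between each other in Cxcl2 than in Cxcl1, and in both genes the CDAA values were far below them. Their neighbour Cxcl3 was called too, with 3.68 and 1.77 CPM against 0 and 0.0428 CPM, levels too low on CDAA to give a fold.

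Mcpt8l2 and Mcpt8l3 belong to the mast cell protease 8 family of serine proteases, whose members are close paralogs, so that reads may be shared between them. Mcpt8l2 had 128 and 107 CPM on CSAA and 23.5 and 18.4 CPM on CDAA (log2 fold change -2.49 ± 0.17, edgeR adjusted p = 0.0166). Mcpt8l3 had 292 and 386 CPM against 96.0 and 52.9 CPM. The T cell receptor complex chain Cd3g had 296 and 352 CPM against 125 and 130 CPM, a log2 fold change of -1.35 ± 0.13 (edgeR adjusted p = 0.0216). Here too the values of the diets did not overlap. Its partners Cd3d and Cd3e had log2 fold changes of -1.65 and -1.59 but edgeR adjusted p of 0.0706 and 0.0873.

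The other 7 genes named downward had log2 fold changes between -2.04 (Rab3ip, a protein of vesicle traffic) and -1.18 (Adamts14, a protease that processes procollagen). Among them were Asb2, a subunit of a ubiquitin ligase, with 29.7 and 27.6 against 10.4 and 5.99 CPM, and malonyl-CoA decarboxylase (Mlycd), which removes an inhibitor of fatty acid oxidation, with 26.8 and 20.9 against 7.06 and 8.73 CPM. Hyi, Trim14 and the small Maf factor Maff fell by 1.31, 1.25 and 1.23 on the log2 scale. Asz1 was counted 128 and 79 times on CSAA and 0 times on CDAA, at least 77.2-fold lower when 3 counts are taken as the limit over both CDAA libraries. In the DMSO libraries Asz1 had 9.11 and 2.13 CPM on CSAA and 0.365 and 0 CPM on CDAA, a smaller log2 fold change of -4.91 ± 1.09.

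Promoters of the called genes were searched for the letters of 7 known motifs, and those of a lysosomal pair and of the chemokine pair are shown because their members moved together. RefSeq sequences of the build GRCr8 were used, of which 89 of the 118 genes had one by symbol, 62 that rose and 27 that fell, and the 250 bases before the start were read on both strands. The deposited counts rest on another build, Rnor6.0. Gpnmb lies on the plus strand at chr4:79340878-79341127 and Cd63 on the plus strand at chr7:1921894-1922143. Capitals mark matches to the M-box (TCATGTG, the site of the MiT factors that drive lysosome genes, read here on the other strand), the AP-1 site (TGANTCA) and, in Cd63, the E-box (CACGTG), none of which overlap.
Gpnmb: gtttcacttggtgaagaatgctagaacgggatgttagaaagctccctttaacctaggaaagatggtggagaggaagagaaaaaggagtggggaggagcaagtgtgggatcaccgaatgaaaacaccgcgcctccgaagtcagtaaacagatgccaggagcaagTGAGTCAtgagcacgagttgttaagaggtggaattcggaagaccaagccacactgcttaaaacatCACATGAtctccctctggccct
Cd63: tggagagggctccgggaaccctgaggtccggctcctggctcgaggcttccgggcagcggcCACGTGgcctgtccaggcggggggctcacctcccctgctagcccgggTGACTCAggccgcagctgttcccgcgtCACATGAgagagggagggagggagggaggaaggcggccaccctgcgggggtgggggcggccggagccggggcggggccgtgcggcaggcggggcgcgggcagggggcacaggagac

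The M-box was present in 4 of the 62 promoters of genes that rose (Apoe, C1qb, Cd63 and Gpnmb), or 6.45%, in 0 of the 27 of genes that fell, in 1.92% of those of all tested genes and in 3.07% of the 33469 promoters in the table. The AP-1 letters were found in 4 of 62 (Cd63, Gpnmb, Mmp12 and Tmem37), or 6.45%, against 4.39% of tested genes and 6.34% of all promoters. The E-box was found in 4 of 62 (Abca1, Cd63, Ctsd and Mmp12) against 8.13% of tested genes and 5.59% of all promoters. Ctsd, a lysosome gene that also rose, thus held the E-box but not the M-box, unlike the pair shown. These are matches of letters in a window and do not show a bound site.

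Cxcl1 and Cxcl2 lie on the minus strand at chr14:17479322-17479571 and chr14:17467256-17467505. Capitals mark 2 matches each to the kB letters, GGG and TTTCC with 2 bases between them, the site of the inflammatory factor NF-kB. In Cxcl1 the first match is read on the other strand.
Cxcl1: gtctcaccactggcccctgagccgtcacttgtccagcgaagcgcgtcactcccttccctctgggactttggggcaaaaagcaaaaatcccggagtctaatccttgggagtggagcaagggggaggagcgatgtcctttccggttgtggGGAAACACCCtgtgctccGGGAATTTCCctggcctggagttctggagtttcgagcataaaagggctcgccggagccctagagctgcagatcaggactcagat
Cxcl2: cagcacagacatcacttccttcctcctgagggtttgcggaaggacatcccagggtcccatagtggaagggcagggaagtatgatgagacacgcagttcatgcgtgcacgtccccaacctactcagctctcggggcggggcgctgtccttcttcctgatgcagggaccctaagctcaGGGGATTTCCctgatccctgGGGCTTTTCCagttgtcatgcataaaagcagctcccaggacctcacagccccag

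The kB letters stood in 2 of the 27 promoters of genes that fell (Cxcl1 and Cxcl2), in 3 of the 62 of genes that rose (Bcat1, Ccl9 and Il1rn), in 1.60% of tested genes and in 1.30% of all promoters. The cyclic AMP element TGACGTCA was found in Jund and Maff among genes that fell, in 0 genes that rose and in 2.96% of tested genes. The direct repeats of nuclear receptors, DR1 and DR4, were found in 0 of the 89 promoters. They stood in 0.0243% and 0% of tested genes and in 0.0508% and 0.00299% of all promoters. Letters this rare could hardly be met in 89 promoters, so nothing is read from their absence. The promoter of Spp1 held none of the 7 motifs.

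Gene lists of the pathways of fatty liver and of immune cells were then read, each against the share called among all genes. The lists were chosen with earlier results of these data known. A high share in a list, here or within populations below, is therefore not independent support. Of the 15 lipid-associated macrophage genes tested, 10 rose (66.7%, with 0.724% of all genes called upward), 0 fell, and the median log2 fold change was 3.09 against -0.02 over all genes. All 15 had higher values in both CDAA animals than in both CSAA animals, which was so for 26.1% of all genes. Besides the genes above, the galectin Lgals3 rose (1.78 ± 0.21), while Lipa, Cd36, Itgax, Plin2 and Cd9 had log2 fold changes of 0.95, 1.06, 0.94, 0.60 and 0.89 with edgeR adjusted p from 0.0556 to 0.244.

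Targets of the sterol sensor LXR included 4 of 11 genes that rose, with 0 that fell and a median of 0.37. Next to Apoe these were the cholesterol exporter Abca1 (5.29 and 6.21 against 23.6 and 21.4 CPM), the apolipoprotein Apoc1 (0.828 and 1.16 against 4.8 and 4.32 CPM) and the gene of LXR alpha itself, Nr1h3 (27.0 and 25.3 against 63.5 and 68.5 CPM). On CDAA Apoc1 was at 42.5 and 11.1 CPM in droplets without a cell and at 29.4 and 11.4 CPM in Kupffer-like cells, beside the higher hepatocyte sum given above, and it cannot be told from background. Hpx and Gc, which hepatocytes secrete, were called upward as well and were higher in droplets without a cell, at 20.8 and 20 and at 8.4 and 7.57 CPM on CDAA, than in the population with their highest level. None of the 18 genes of cholesterol synthesis and uptake was called (median -0.11). Among 15 genes of fatty acid oxidation and PPAR targets Fabp4 was the 1 gene called. None of 11 genes of choline and one-carbon metabolism was called (median 0.11).

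Of 24 lysosome genes, 4 rose, namely Gpnmb, Cd63, the protease Ctsd (161 and 160 against 452 and 635 CPM) and the protease Lgmn (81.7 and 70.7 against 156 and 205 CPM). The matrix list had 3 of 16 genes that rose: Mmp12, the membrane protease Mmp14 (log2 fold change 3.69 ± 0.54) and the protease inhibitor Timp1 (1.64 ± 0.22). Complement had 3 of 16 that rose, C3 (1.61 ± 0.14), C1qc (1.30 ± 0.16) and C1qb (1.22 ± 0.13), of which the C1q chains are also markers of Kupffer cells. Of 15 Fc and inhibitory myeloid receptors, Cd300lf, Lilrb4 and Clec4a3 rose by 2.80, 1.88 and 1.32 on the log2 scale. In these 4 lists no gene was called lower. Values were higher in both CDAA animals for 17 lysosome, 8 matrix, 13 complement and 11 receptor genes (26.1% of all genes). They were lower in both for 2, 3, 0 and 1 in the same order (27.4% of all genes).

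Chemokines moved both ways, as 2 of 20 rose (Ccl9 and Cxcl16, a chemokine that also binds oxidized lipoprotein) and 3 fell (Cxcl1, Cxcl2 and Cxcl3). Of 14 cytokines, the interleukin 1 antagonist Il1rn rose (73.3 and 59.0 against 131 and 135 CPM) and Il4, a product of basophils and helper T cells, fell (7.04 and 11.7 against 2.0 and 1.16 CPM). In the early response list Fosb and Jund, subunits of AP-1, fell by 3.04 and 1.05 on the log2 scale among 14 genes tested. Rrm1 was the 1 of 25 cell cycle genes called and Cst7 the 1 of 11 genes of cytotoxic granules, both upward.

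No gene was called among 25 type I interferon-stimulated genes, although 15 of them had lower values in both CDAA animals, which was so for 27.4% of all genes, and their median was -0.32. Isg15 had 118 and 120 CPM against 77.2 and 69.9 CPM (log2 fold change -0.69, edgeR adjusted p = 0.0527) and Irf7 152 and 126 against 87.0 and 85.2 CPM (-0.69, edgeR adjusted p = 0.0689). Glycolysis showed the converse, with 0 of 17 genes called, 15 with higher values in both CDAA animals (26.1% of all genes) and a median of 0.43. Interferon gamma-induced genes, MHC class II, heat shock, killer cell receptors, T cell activation, homing receptors, iron handling, S100 proteins and oxidative stress had 0 genes called of 10 to 20 tested. Among these, 8 of 10 S100, 12 of 17 oxidative stress and 6 of 10 heat shock genes were higher in both CDAA animals. In the same order, 0, 2 and 0 were lower in both. Of 18 homing receptors, 10 were lower and 5 higher in both. With an unadjusted p under 0.05, edgeR gave 2295 of the 11746 genes tested, and DESeq2 called 366 genes where edgeR called 118.

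The DMSO libraries came from the same animals and are a second measurement, not further animals. Of the 116 called genes tested there, 115 had the same direction. In that fit 69 of 11341 genes were called (0.608%), 47 of them also in fresh cells, and 107 of the fresh genes had values of the diets that again did not overlap in the same direction. How often all tested genes kept their direction or did not overlap in DMSO libraries was not computed. The counts of same direction and of no overlap therefore have no background share beside them. Spp1 stood at 0.127 and 0.243 CPM on CSAA and 150 and 314 CPM on CDAA, and Cxcl1 at 143 and 37.2 against 1.1 and 3.05 CPM. The exception was Mcpt8l2, with 4.62, 33.4, 46.2 and 21.1 CPM in NC1, NC2, PC1 and PC2 after storage and a log2 fold change of 0.77 ± 0.82. Mcpt8l3, Asb2 and Adamts14 also overlapped between the diets in DMSO cells, with log2 fold changes of -0.29, -0.40 and -0.05. Fosb, of the early response list, overlapped as well, at 286 and 978 against 359 and 339 CPM (-0.91 ± 0.52). The paper reports higher Fosb in cryopreserved than in fresh cells of every rat. Whether the diet difference changed with storage was not tested.

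**Figure D2:**
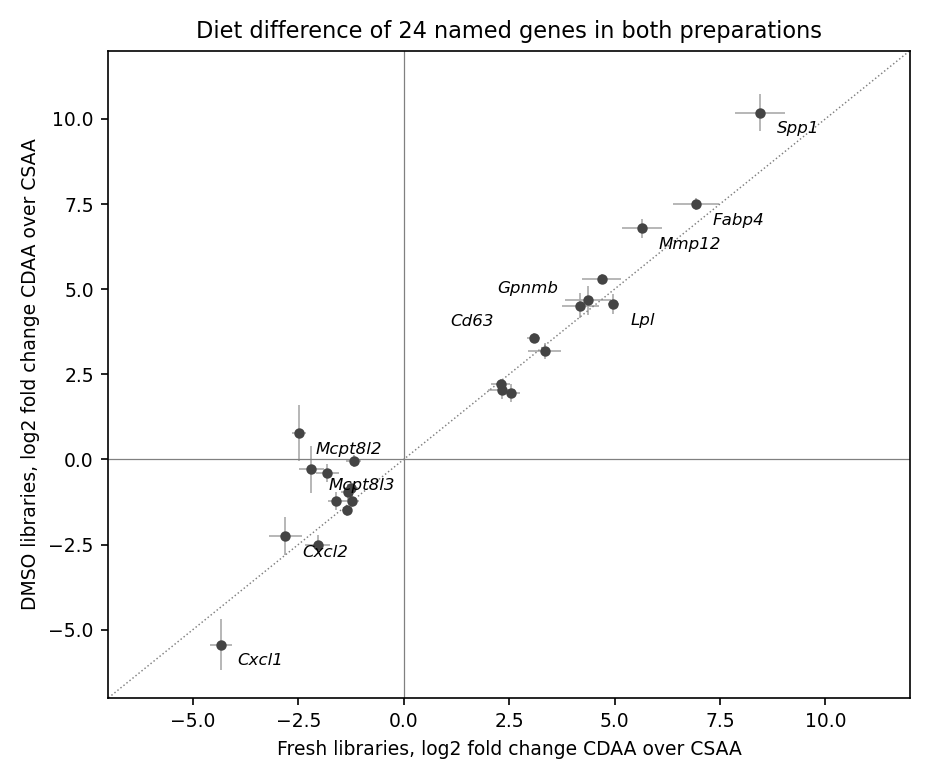
Log2 fold change CDAA over CSAA of the 24 named genes in fresh (horizontal) and DMSO (vertical) libraries, with bars of 1 SE; the dotted line marks equal values. Genes that rose lie near the line, and Mcpt8l2 at -2.49 and 0.77 is the gene with opposite signs.

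To see in which cells these genes were measured, the fresh cells were clustered without the genes that differed between the diets, and clusters were named from markers as Kupffer-like, monocyte-like and so on, or by their leading genes where no name could be given. Of the 16 populations, 9 had shares that did not overlap between the diets. With 2 animals per diet the two-sided exact permutation test cannot give a p below 0.333, which was the value for each of the 9. Intervals are exact 95% binomial intervals and cover counting error only.

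Nonclassical monocyte-like cells (Cx3cr1, Spn, Treml4) were the largest population, with 20.2% and 17.5% of the cells of NC1 and NC2 and 32.4% and 32.3% of PC1 and PC2. Classical monocyte-like cells (Vcan, Fcnb, Cd14) made up 5.2% and 4.41% on CSAA and 7.21% and 8.52% on CDAA. Kupffer-like cells (Clec4f, Vsig4, Cd5l, C1q genes) made up 1.82% (84 cells; interval 1.45% to 2.25%) and 2.81% (116 cells; 2.33% to 3.36%) on CSAA, and 3.86% (159 cells; 3.29% to 4.49%) and 4.92% (206 cells; 4.28% to 5.62%) on CDAA. These 3 were larger shares in both CDAA animals.

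T-like cells made up 11.4% and 11.2% of CSAA cells but 4.8% and 2.58% of CDAA cells. A population led by Asb2, Adamts14, Cd93 and Itga1, which also carried the killer cell genes Ncr1, Gzma and Prf1, was 12.5% and 12.3% on CSAA and 1.65% and 1.10% on CDAA. It had a median of only 1885 UMIs per cell and 8.82% mitochondrial UMIs. Plasmacytoid dendritic-like cells were 14% and 10.7% against 9.10% and 8.19%. A small population led by Cxcl1, Ccl24, Cxcl2 and Asz1 counted 49 and 37 cells on CSAA and 3 and 6 on CDAA. It had 3 markers of the Kupffer list raised (Vsig4, C1qa and C1qb), but none among its 10 leading genes. Mast/basophil-like cells counted 26 and 14 against 4 and 8.

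The remaining population that did not overlap, led by Cebpb and C3, was 4.61% and 3.44% against 6.31% and 8.97%, with a median of 1158 UMIs per cell and 14.1% mitochondrial UMIs. PC2 stood apart from PC1 in lymphocytes, with 2.1% against 7.25% B-like cells and 13.6% against 6.65% NK/NKT-like cells. Without clusters, T cell markers summed to 1448 and 1627 against 856 and 804 CPM and Kupffer cell markers to 567 and 811 against 1460 and 1435 CPM, the same way as the shares. Nonclassical monocyte markers changed less than the share, at 649 and 510 against 765 and 746.5 CPM. Sums of neutrophil (576 and 331 against 650 and 810 CPM) and B cell markers (568 and 508 against 459 and 252 CPM) did not overlap, although those shares did. Clec4f, the most specific Kupffer cell marker of the list, had 24.3, 57.8, 37.3 and 46.2 CPM in NC1, NC2, PC1 and PC2 and overlapped between the diets, and so did Cd163.

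**Figure D3:**
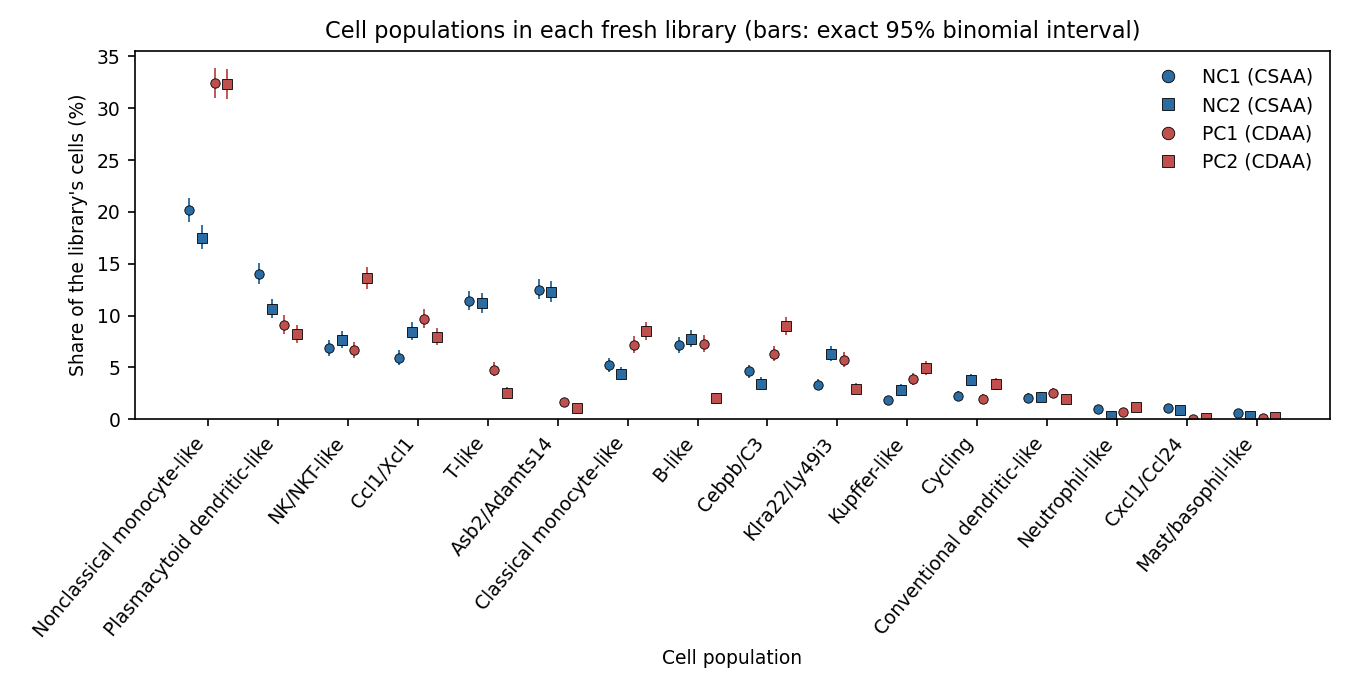
Share of each of the 16 populations among the cells of each fresh library, with exact 95% binomial intervals; blue is CSAA and red is CDAA. Nonclassical monocyte-like cells reach 32.4% on CDAA, and the Asb2/Adamts14 population is at 1.65% or below on CDAA and above 12% on CSAA.

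A value from shares alone can be computed only under the assumption that each population keeps its CSAA profile, free RNA included. The assumption did not hold, as Cxcl1 in B-like cells had 28.4 and 19.6 CPM on CSAA and 0 CPM in both CDAA animals. With the shares of UMIs changed to those of CDAA on that assumption, Spp1 would differ by 0.27 on the log2 scale, Fabp4 by 0.69, Apoe by 0.44 and Igf1 by 1.06, beside measured values of 8.45, 6.93, 4.69 and 3.35. For genes that fell, the value from shares was -1.11 for Cxcl1, -0.65 for Mcpt8l2 and -0.47 for Cd3g, beside -4.34, -2.49 and -1.35. Since profiles changed with the diet, these values cannot divide a difference into shares and levels per cell.

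Free RNA sets a floor under these levels in every population. In CDAA libraries Spp1 was measured at 936 and 1570 CPM in Kupffer-like cells of PC1 and PC2, at 55.3 and 128 CPM in T-like cells, at 67.7 and 142 CPM in B-like cells, at 63.2 and 115 CPM in NK/NKT-like cells and at 177 and 327 CPM in droplets without a cell. The 3 lymphoid populations had nearly equal levels, all below those of droplets without a cell, and these levels are read as background. Fabp4, Mmp12, Apoe, Trem2, Gpnmb, Igf1, Cd63 and Folr2 had the same layout, in which Kupffer-like cells were the only one, among populations with at least 50 cells in each library, at least 2 times above the median of the others in both CDAA animals. Kupffer-like cells held between 46.2% (Cd63) and 69.3% (Apoe) of the UMIs of these 9 genes on CDAA. Of the 85 genes that rose, 43 had their highest level in Kupffer-like cells, 16 in the Cebpb/C3 population and 12 in nonclassical monocyte-like cells.

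Lpl and Ccl9 were different. Lpl reached 408 and 437 CPM in Kupffer-like cells and 232 and 179 CPM in nonclassical monocyte-like cells, which held 34.2% and 37.5% of its UMIs on CDAA, with 142 and 129 CPM in droplets without a cell. Ccl9 was highest in nonclassical monocyte-like cells, at 190 and 160 CPM, which held 58.8% of its UMIs. Fabp5 was raised above the other populations in both classical monocyte-like and Kupffer-like cells. Rrm1 and Cst7, of the cell cycle and cytotoxic granule lists, were highest in nonclassical monocyte-like cells. These cells held 48.8% and 36.6% of their UMIs on CDAA, and Cst7 was not 2 times above the median of the other populations.

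**Figure D4:**
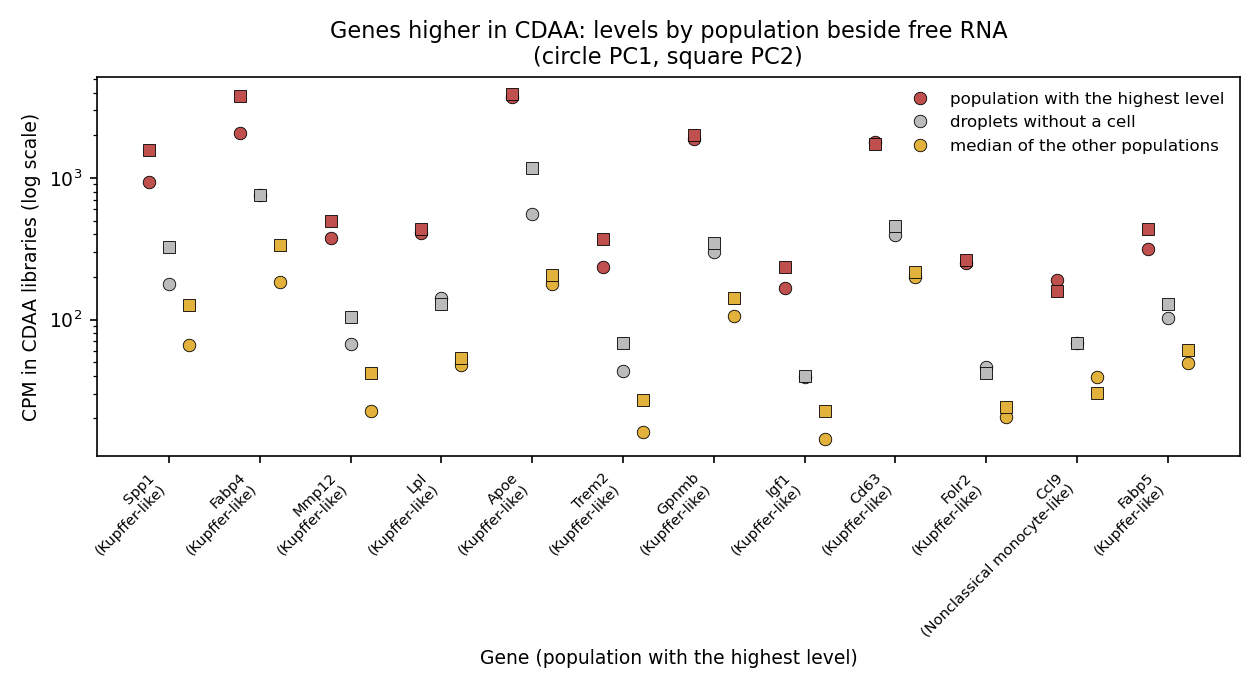
CPM of the 12 genes named upward in CDAA libraries on a log scale, in the population with the highest level (red), in droplets without a cell (grey) and as the median of the other populations (yellow); circles are PC1 and squares PC2. Spp1 reaches 1570 CPM in Kupffer-like cells of PC2, with 327 CPM in droplets without a cell.

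Among genes that fell, 9 of 33 had their highest CSAA level in the Asb2/Adamts14 population, 6 in T-like cells, 6 in the Cxcl1/Ccl24 population and 4 in mast/basophil-like cells. The 49 and 37 cells of the Cxcl1/Ccl24 population held 56.6% of the Cxcl1 UMIs and 55.2% of the Cxcl2 UMIs of CSAA libraries, at 1043 and 1012 CPM of Cxcl1. Cxcl2 was at 32.3 and 19.5 CPM in classical monocyte-like cells on CDAA and at 34.2 and 22.1 CPM on CSAA, so these values overlapped. Mast/basophil-like cells held 42.7% of the Mcpt8l2 UMIs on CSAA in 26 and 14 cells, but 5.21% of the Il4 UMIs. Among populations with at least 50 cells in each library, only one led by Ccl1 and Xcl1 was at least 2 times above the others in Il4. Cd3g was at 1007 and 1041 CPM in T-like cells on CSAA and at 799 and 990 CPM on CDAA, while T-like cells were a smaller share.

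Within the Kupffer-like population the diet difference was tested on UMIs summed over its cells, and 13 of 15 lipid-associated macrophage, 6 of 24 lysosome and 4 of 12 matrix genes rose while 7 of 21 type I interferon-stimulated genes fell on CDAA. Of 7030 genes, 161 were called (2.29%; edgeR adjusted p under 0.05 and at least 2-fold), 95 higher and 66 lower. The count was 42 without NC1, 90 without NC2, 377 without PC1 and 193 without PC2. Of 39 called genes of the lists or the naming rule that are described for these cells, 23 lost the call without NC1, 17 without NC2, 3 without PC2 and 1 of the 38 tested without PC1, and their direction held. Without integration of the animals, 15 of these 39 lost the call and 1 reversed, in a Kupffer-like cluster of 1696 cells instead of 565. Since free RNA enters every population, 106 of the 161 are described further, 76 higher and 30 lower, which were at least 2 times above the median of the other populations in the diet where they were higher and were not leading genes of the cluster. This limit was set after the data had been seen. Its last part left out leading genes, keeping 30 of the 32 lower genes above the other populations. The leading genes left out were thus called lower on CDAA in the cluster that they lead. With the genes that differed between the diets kept in the clustering, the Kupffer-like cluster had 304 cells instead of 565. Whether it holds the same kind of cell under both diets was not tested.

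Of the 13 lipid-associated macrophage genes that rose in Kupffer-like cells, 11 were above the other populations. Spp1 had 6.73 and 0 CPM on CSAA and 931 and 1575 CPM on CDAA. Apoe rose from 177 and 63.2 to 3735 and 3928 CPM (log2 fold change 5.02 ± 0.35, edgeR adjusted p = 5.8e-05). Trem2 rose from 10.1 and 1.40 to 236 and 373 CPM, Lpl from 6.73 and 7.02 to 406 and 438 CPM, and Gpnmb from 190 and 138 to 1888 and 2029 CPM. The replicates lay much closer together than the diets in each of them. Plin2, which coats lipid droplets, and the lysosomal lipase Lipa were not called, at 1.04 ± 0.28 and 0.48 ± 0.16.

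The 6 lysosome genes that rose in Kupffer-like cells were all above the other populations. Ctsd rose from 369 and 352 to 2172 and 2516 CPM (2.70 ± 0.14, edgeR adjusted p = 9.4e-06), and Ctsb, Ctsl and Hexa rose by 1.49, 1.41 and 1.04 on the log2 scale next to Gpnmb and Cd63. Mmp12, Mmp14, Timp1 and the urokinase receptor Plaur rose among the matrix genes, and 1 matrix gene fell. Tgfb1, of the matrix and cytokine lists, was called lower here, from 82.5 and 28.1 to 4.04 and 8.94 CPM (-2.97 ± 0.52). It did not stand above the other populations. Nonclassical monocyte-like, plasmacytoid dendritic-like and NK/NKT-like cells and a population led by Ccl1 and Xcl1 had Tgfb1 called lower as well. Fabp4, the lipase inhibitor Angptl4 and the fatty acid transporter Cd36 rose among 14 genes of fatty acid oxidation and PPAR targets. Sqle, an enzyme of cholesterol synthesis, rose by 1.63 ± 0.27. Igf1 rose by 1.75 ± 0.24 and Folr2 by 2.16 ± 0.23. Gdf15, a stress hormone of the TGF-beta family, had 0 and 0 CPM on CSAA and 28.8 and 16.1 CPM on CDAA.

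Some interferon-stimulated genes fell in the same cells. Of 21 type I genes tested, 7 were called lower, 0 higher and 14 not, and the median was -0.95. The antiviral GTPases Mx1 and Mx2 had 155 and 208 against 54.0 and 54.4 CPM and 45.5 and 74.4 against 18.7 and 17.5 CPM. The interferon regulator Irf7 had 185 and 204 against 75.7 and 53.6 CPM (-1.60 ± 0.20, edgeR adjusted p = 0.0028), and Ly6e, Isg15, Ifi27 and Rtp4 fell by 1.09, 1.44, 1.07 and 1.05 on the log2 scale. Of these 7, Mx1, Mx2, Irf7 and Ly6e were above the other populations on CSAA. Among 14 genes induced by interferon gamma, the chemokines Cxcl9 and Cxcl11, the GTPase Gbp2 and the feedback inhibitor Socs1 fell, by 1.22, 3.29, 1.1 and 2.36. Fosb fell from 37.0 and 23.9 to 2.52 and 0.715 CPM. Fabp1, a hepatocyte gene, fell from 13.5 and 29.5 to 5.55 and 1.07 CPM (-2.85 ± 0.65, edgeR adjusted p = 0.0489). The hepatocyte marker sum of all fresh cells was higher on CDAA, and the part of free RNA in this Fabp1 difference was not tested.

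**Figure D5:**
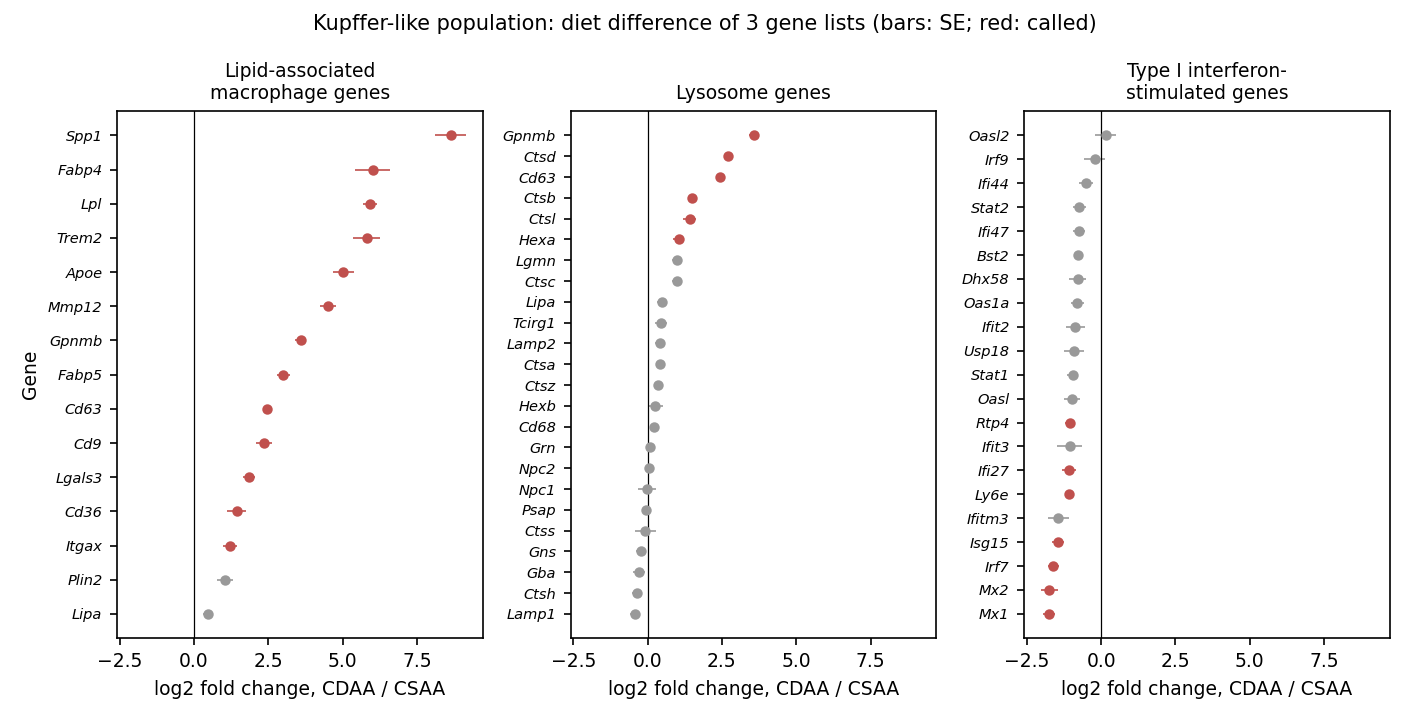
Log2 fold change CDAA over CSAA with 1 SE for genes of 3 lists within the Kupffer-like population; red points are genes called. Lipid-associated macrophage genes reach 8.63 (Spp1), lysosome genes 3.58 (Gpnmb), and interferon-stimulated genes go down to -1.75 (Mx1).

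Nonclassical monocyte-like cells had 80 of 8866 genes called (0.902%), of which 21 that rose and 8 that fell were above the other populations and not leading genes. The count was 220 without NC1, 306 without NC2, 37 without PC1 and 47 without PC2. Without integration of the animals these cells lay mostly in a cluster led by RGD1561778 and Defb14, with 85 and 89 cells on CSAA and 1533 and 1655 on CDAA, and one led by Fcgr3a and Fpr3, with 957 and 696 against 33 and 6 cells, so that the comparison is between cells that fell into different clusters by diet. Lpl rose from 13.5 and 16.3 to 231 and 180 CPM (3.80 ± 0.19, edgeR adjusted p = 0.00018). Alox5, which makes leukotrienes, rose from 1.63 and 1.63 to 20.8 and 17.4 CPM, and the calcium-binding Tesc from 2.98 and 3.25 to 44.3 and 24.5 CPM. The Fc receptor Fcgr3a fell from 979 and 1316 to 393 and 272 CPM, and Them6 and Filip1l fell by 1.63 and 1.37 on the log2 scale. C3, Cd300lf, Lilrb4 and Rrm1 also rose here, and Tgfbi fell.

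Classical monocyte-like cells had 67 of 7369 genes called (0.909%), with 13 that rose and 6 that fell above the other populations. Without NC1, NC2, PC1 and PC2 in turn, 198, 243, 222 and 132 genes were called. Irg1, which makes itaconate, rose from 1.24 and 3.65 to 21.5 and 17.4 CPM, Fabp5 from 42.6 and 33.8 to 132 and 156 CPM, and Timp1 from 11.7 and 14.6 to 39.9 and 52.1 CPM. Droplets without a cell held 14.8 and 10.7, 102 and 129, and 20.8 and 27.6 CPM of these genes on CDAA. Irg1 also stood at 26.3 and 16.8 CPM in the Cebpb/C3 population. Cxcl10, an interferon-induced chemokine, fell from 77.2 and 63.9 to 18.8 and 23.3 CPM. Fosb fell by 3.44 ± 0.39 and Bri3 by 1.61 ± 0.24 on the log2 scale, and Dusp1 fell as well. C3, Sod2 and S100a8 rose.

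Plasmacytoid dendritic-like cells had 84 of 8626 genes called (0.974%), with 6 that rose and 5 that fell above the other populations and not leading genes, and 197, 202, 80 and 61 genes called without NC1, NC2, PC1 and PC2. Without integration they too lay in different clusters by diet, with 1, 7, 340 and 328 cells of NC1, NC2, PC1 and PC2 in one, 571, 7, 3 and 0 in another and 77, 426, 35 and 12 in the last, so that the CSAA animals also separated from each other. Cd24 rose from 26.5 and 21.0 to 111 and 87.8 CPM, and Dctd and Plvap rose by 1.67 and 1.19 on the log2 scale. Sap30, Spats2l and Pgp fell by 1.28, 1.21 and 1.15. The leading genes of conventional dendritic-like cells included Xcr1 and Batf3, but also the erythroid marker Hba-a2 and the endothelial marker Lyve1. At a finer clustering resolution of 0.8 they were 317 cells instead of 370, and 42 cells formed a liver endothelial-like population. In conventional dendritic-like cells 25 of 6493 genes were called (0.385%), among which Il4i1 rose from 12.5 and 14.5 to 51.4 and 61.3 CPM above the other populations. Their count was 137 without NC1, 18 without NC2, 180 without PC1 and 60 without PC2, and Il4i1 was not called without NC2 or at the finer clustering resolution of 0.8.

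T-like cells had 53 of 7056 genes called (0.751%), but only 6 above the other populations, and 123, 153, 91 and 57 called without NC1, NC2, PC1 and PC2. The costimulatory receptor Tnfrsf4, also known as OX40, rose from 33.4 and 25.3 to 121 and 90.1 CPM (1.86 ± 0.22, edgeR adjusted p = 0.0020). Hpgds, the prostaglandin D synthase, and Prnp rose by 2.03 and 1.36, Tnfrsf9 rose too, and Fam101b fell by 1.39 on the log2 scale. NK/NKT-like cells had 67 of 6774 called (0.989%; 155, 234, 144 and 37 without NC1, NC2, PC1 and PC2) and 4 above the other populations, where Itm2a rose by 1.02 and Begain and Maff fell by 2.85 and 1.58. These 3 genes lost the call without integration of the animals, where the cells lay in a cluster with 1, 3, 253 and 576 cells of NC1, NC2, PC1 and PC2 and one with 321, 318, 13 and 14. B-like cells had 29 of 6338 called (0.458%; 60, 0, 90 and 98 without each library in that order), none of them above the other populations. Cycling cells had 31 of 6897 called (0.449%; 85, 133, 96 and 25), where Ube2s and Fam111a fell by 1.42 and 1.03 and Car1 had 0 and 0.617 CPM against 44.8 and 27.0 CPM.

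In the populations without a name, 158 of 7538 genes were called in the one led by Ccl1 and Xcl1 (2.1%), 140 of 3480 in the Cebpb/C3 population (4.02%) and 44 of 6393 in the one led by Klra22 and Ly49i3 (0.688%). In the first of these, Pdcd1lg2, the second ligand of PD-1, rose from 17.5 and 24 to 123 and 106 CPM, and the proteases Mcpt1l4, Mcpt8l2 and Mcpt8l3 fell by 2.13, 2.11 and 2.07 on the log2 scale. In the Cebpb/C3 population, Lpl and Bcat1 rose by 4.38 and 1.99 on the log2 scale. Cd3g, Cd3d and Trat1 fell by 1.55, 1.53 and 1.92 in the Klra22/Ly49i3 population.

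Whether the diet difference was unequal between myeloid and lymphoid cells was tested as an interaction with the animal as a block. Lymphoid cells were here the T-like, NK/NKT-like and B-like populations. Myeloid cells were the Kupffer-like, monocyte-like, conventional dendritic-like and neutrophil-like populations. All other populations were in neither, among them the Ccl1/Xcl1, Asb2/Adamts14 and Klra22/Ly49i3 ones, which carried killer cell or T cell markers. Of 9893 genes, 11 were called (0.111%; edgeR adjusted p under 0.05) and 863 had an unadjusted p under 0.05. The count was 1 without NC1, 18 without NC2, 401 without PC1 and 29 without PC2, and the 11 genes kept their direction in each of these. The lysosomal protease Ctsd had 186 and 181 against 632 and 876 CPM in myeloid cells and 124 and 106 against 244 and 358 CPM in lymphoid cells, a larger difference in myeloid cells by 0.69 on the log2 scale. With Kupffer-like cells left out, that value was -0.25 and not significant (edgeR adjusted p = 0.607). Droplets without a cell held 478 and 608 CPM of Ctsd on CDAA, above both lymphoid levels, so the lymphoid values cannot be told from background. Tesc had 3.28 and 2.15 against 24.5 and 11.9 CPM in myeloid cells and overlapped between the diets in lymphoid cells. For the cytotoxic granule genes Gzma and Prf1 the diet difference was lower in myeloid than in lymphoid cells, by 1.22 and 1.11 on the log2 scale. In lymphoid cells Prf1 had 1002 and 1426 against 1569 and 4108 CPM, beside NK/NKT-like cells that were 26.9% and 28.7% of lymphoid cells on CSAA and 35.5% and 74.4% on CDAA. The part of this mixture in the result was not tested.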

How the data were processed

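The 8 libraries were read with the Chromium 3′ v2 chemistry. The counts deposited by the authors are raw UMIs of all barcodes, made by Cell Ranger 2.1.1 (the processing notes also name bcl2fastq 2.17.1.14 and STAR) on Rnor6.0 with Ensembl 86. Cells, at least 500 UMIs and under 20% mitochondrial UMIs, were summed per library and gene and tested with edgeR 4.0.16 in R 4.3.3 (TMM, low count filter, CDAA against CSAA, 2 against 2). CPM are scaled by TMM in fits and plain by population. Clusters came from Seurat 5.3.0 (20 dimensions, resolution 0.4) and were named by at least 3 markers; the rule of 1 marker among 10 leading genes was added after seeing clusters. The highest Scrublet scores were left out only as an alternative. Within populations, 50 cells per library were needed. The comparison rested on members, gene lists and markers chosen with earlier results of these data known. Named genes were the 12 largest called changes per direction with non-overlapping values and a mean of at least 10 CPM (3 per direction within populations, up to 4 per list); a few others, such as Asz1, were chosen after their values were seen. Tested on simulated data of the summed profile, 42 of 67 2-fold, 54 of 67 4-fold and 64 of 66 8-fold changes were found with 6 false calls. On simulated data of Kupffer-like cells 23 of 67, 59 of 67 and 62 of 66 were found, also with 6 false calls. In both only the adjusted p threshold was applied, without the 2-fold minimum of the calls above. The simulated spread was the one edgeR fits to genes of the same level. For the interaction, with the same spread set for every gene, 12 of 67, 65 of 67 and 66 of 66 were found with 3 false calls. Labels name 1 animal per replicate. Alternatives were DESeq2 1.42.0, other filters, cells, clusters and leaving out each library.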

Additional observations from a re-analysis of the deposited data

Results flagged for a closer look

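The test of unequal diet differences between myeloid and lymphoid cells of the same animals called 11 genes of 9893, and each is listed for that reason. The log2 difference, myeloid minus lymphoid, was 3.33 for RGD1562667, 3.10 for Tesc, 1.17 for Rgs1 and 0.69 for Ctsd. It was -0.97 for LOC103690111, -1.22 for Gzma, -1.29 for LOC497796, -1.11 for Prf1, -1.85 for Adamts14, -1.87 for Mcpt8l2 and -2.43 for Tgfb2. RGD1562667 had 6.99 and 9.14 CPM on CSAA against 287 and 630 CPM on CDAA in myeloid cells, and 11.6 and 16.1 against 55.0 and 102 CPM in lymphoid cells. LOC103690111 had 572 and 650 against 349 and 358 CPM in myeloid cells and 101 and 100.1 against 121 and 115 CPM in lymphoid cells. Mcpt8l2 had 32.7 and 23.5 against 4.73 and 3.80 CPM in myeloid and 30.7 and 33.0 against 17.4 and 18.8 CPM in lymphoid cells, levels that lie below the 57.3 and 78.9 CPM of CSAA droplets without a cell. Adamts14 had 12.6 and 13.4 CPM in myeloid cells on CSAA, where droplets without a cell held 27.9 and 43.4 CPM.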

How the results depend on the processing

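Of the values of genes named in the summed profile under alternatives, 282 kept direction and call, 53 kept the direction without the call, mostly without a CDAA library, and 0 reversed. Genes described within Kupffer-like cells kept direction and call in 278 values and lost the call in 71, and Atf3 reversed without integration (log2 fold change -0.49), where the Kupffer-like cluster also had the classical monocyte genes Vcan and Fcnb among its leading genes. Of the interaction genes, Ctsd reversed without Kupffer-like cells (-0.25, chosen after seeing the data). The 118 genes called between diets became 366 with the DESeq2 test, 330 without the low count filter, 183 with all 8 libraries in 1 fit, 3 with Bonferroni adjustment and 56 without Kupffer-like cells, an alternative chosen after seeing the data, and 7 to 334 when each library was left out in turn. Direction in DMSO cells held for 95% to 100% of the genes called without 1 library. Within named populations, 597 calls became 326 without integration of animals, 181 when only genes at least 2 times above the other populations and not leading genes were counted (both chosen after seeing the data), and 710 to 1379 without 1 library. The 11 interaction genes became 256 without the filter, 31 at resolution 0.8, 24 without Kupffer-like cells (chosen after seeing the data) and 1 to 401 without 1 library. Populations with shares that did not overlap stayed between 8 and 11. The replicate numbers name different animals, and deviations of same-numbered libraries did not go together (r = -0.06 over 11746 genes). A fit with the replicate number as a block called 242 genes in the summed profile and 1217 within populations. The causes of these differences were not tested. With 2 animals per diet, levels near 1 CPM and populations of under 50 cells per library limit what could be compared.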
